A study of Mus musculus with 2 samples.

Results

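Shallow sciatic nerve macrophages in which *Actb*, the gene of cytoplasmic beta-actin, took an unusually large share of the RNA were described in 2 single-cell libraries. Members were chosen by their measured *Actb* share, as cells with 500 to 2000 unique molecular identifiers (UMIs, counts of distinct captured RNA molecules) and at least 200 genes in which at least 2% of the UMIs were on *Actb*. There were 966 such cells (Actb-high), 29 of them YFP- and 937 YFP+, of 3194 cells in this UMI range and of 5098 barcodes in all with at least 500 UMIs and 200 genes. They were set against 1630 cells of the same range with less than 1% on *Actb* (Actb-low), 364 in YFP- and 1266 in YFP+, and the 598 cells between the cuts were kept apart.

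The cells came from sciatic nerves of 19 pooled male Flt3-Cre LSL-YFP fl/fl mice aged 10 to 12 weeks, with no treatment, and were sorted as CD64+ CD45int cells. In these mice Cre driven from *Flt3*, a gene used by blood progenitors that descend from haematopoietic stem cells, removes a stop cassette and turns on yellow fluorescent protein for good, so YFP+ cells derive from such progenitors and YFP- cells were taken as embryonic in origin. Both groups carried the same alleles and each was 1 library of pooled mice, so differences between groups have no replicate check and no test was run. The sums of UMIs were 38054 (YFP-) and 934847 (YFP+) over Actb-high cells and 451689 and 1650146 over Actb-low cells. Intervals below cover counting error at 95% only.

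Beta-actin monomers polymerise into the filaments that macrophages use for movement and engulfment, and *Actb* is among the abundant mRNAs of nearly every cell. *Notch2* encodes a receptor that is cut on contact with a ligand of a neighbouring cell and sends its inner part to the nucleus. *Fhl3* encodes a LIM domain protein that binds actin and nuclear factors, and *Slc39a1* encodes ZIP1, which brings zinc into the cell.

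The rule itself set the *Actb* values, which are a description. *Actb* made up 2.70% of the UMIs of Actb-high cells in YFP- and 3.17% in YFP+, against 0.315% and 0.363% in Actb-low cells. The highest cell reached 4.66% in YFP- and 9.08% in YFP+. In barcodes of 10 to 100 UMIs, which hold mainly RNA free in the suspension, *Actb* took 0.416% (YFP-) and 0.941% (YFP+), under the 2% limit in both libraries. In YFP+ the cells fell into a large group near 0% and a second hump around the 2% limit, so that limit passed through the hump and not beside it. In YFP- the counts fell away with only a small shoulder.

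**Figure D1:**
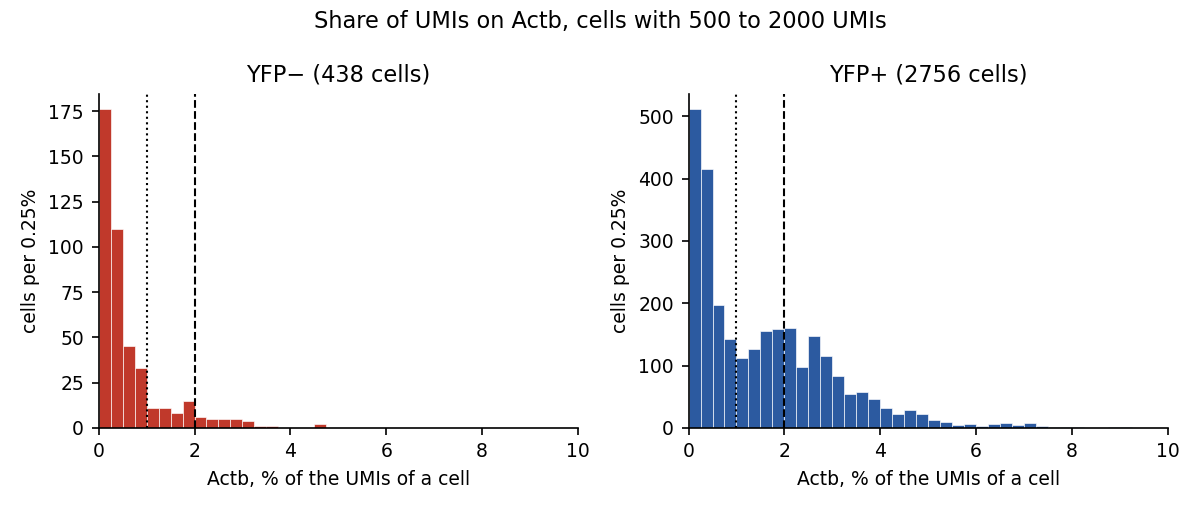
Number of cells (y axis) by the percentage of a cell's UMIs on Actb (x axis, bins of 0.25%) for the 438 YFP- and 2756 YFP+ cells with 500 to 2000 UMIs. The dotted line at 1% and the dashed line at 2% are the limits of the rule. The YFP+ panel has a second hump that the 2% line crosses, and the YFP- panel has few cells there.

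Actb-high cells made up 6.62% of cells in the range in YFP- (exact binomial interval 4.48 to 9.37) and 34.0% in YFP+ (32.2 to 35.8). This was 1 library against another, and the share varied with depth in YFP+. There it was 45.7% at 500 to 749 UMIs, 46.6% at 750 to 999, 37.5% at 1000 to 1249, 27.7% at 1250 to 1499 and 14.9% at 1500 to 2000. In YFP- it lay between 3.03% and 10.6% over the same bins, with 66 to 137 cells each and intervals that overlapped. Above 2000 UMIs, outside the rule, 33 of 607 cells (5.44%, 3.77 to 7.55) in YFP- and 127 of 1297 (9.79%, 8.23 to 11.5) in YFP+ had at least 2% on *Actb*, and the gap between the libraries was narrower, although their intervals still lay apart. Below the range, from 200 UMIs upward, the shares were 2.62% and 19.98%. The 7 barcodes that both libraries shared at 500 UMIs or more included 3 Actb-high cells, all in YFP+, and none was Actb-high in both.

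**Figure D2:**
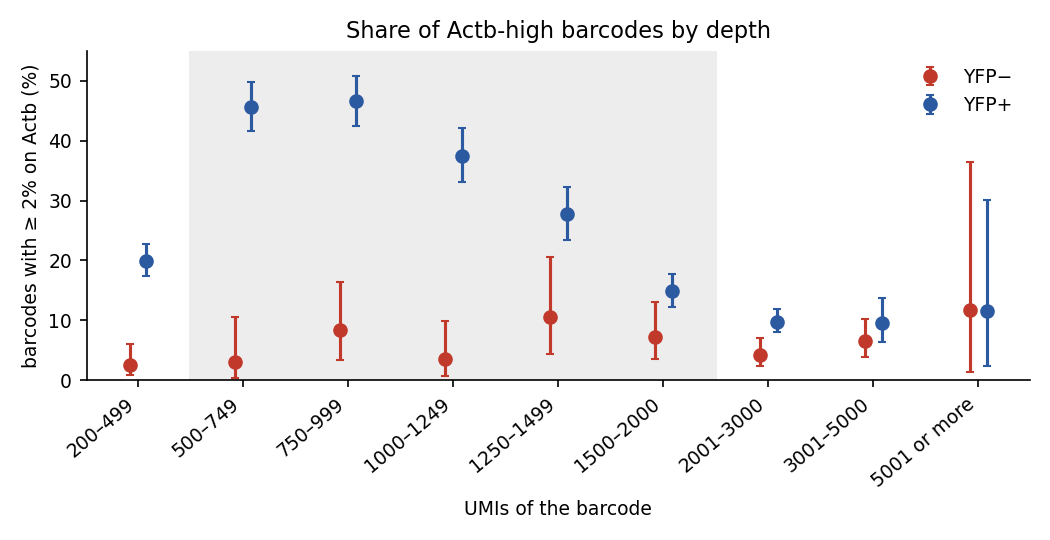
Percentage of barcodes with at least 2% of UMIs on Actb (y axis) by the number of UMIs (x axis) in each library, with exact 95% binomial intervals and the rule's UMI range shaded. YFP+ falls from 46.6% to 14.9% inside the range and lies closer to YFP- above it.

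Actb-high cells of YFP+ were shallower than their comparison cells, with a median of 911 UMIs and 536 genes against 1340 UMIs and 715.5 genes. In YFP- the medians were 1314 UMIs and 740 genes against 1205.5 UMIs and 671 genes, the opposite order. Mitochondrial transcripts took 1.37% of UMIs in Actb-high and 1.82% in Actb-low cells of YFP-, and 1.16% and 1.33% in YFP+. No Actb-high cell was above 10% mitochondrial. *Malat1*, a nuclear long non-coding RNA, took 3.86% against 5.22% (YFP-) and 4.49% against 5.27% (YFP+), and ribosomal protein transcripts 17.2% against 15.5% and 20.1% against 18.9%. The part of these differences in the results below was not tested.

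Levels are given as CPM, UMIs scaled to a total of 1000000 with *Actb* left out, and ratios as log2 of Actb-high over Actb-low after adding 1 CPM. *Notch2* was at 567 CPM (21 UMIs) in Actb-high and 115 CPM in Actb-low cells of YFP-, and at 679 and 140 CPM (615 and 231 UMIs) in YFP+. The log2 ratio was 2.29 (1.48 to 3.04) in YFP- and 2.27 (2.05 to 2.49) in YFP+, nearly the same in both. *Slc39a1* was at 648 CPM (24 UMIs) against 44.4 CPM in YFP- and at 371 against 48.7 CPM in YFP+. Its log2 ratios were 3.84 (2.93 to 4.75) and 2.91 (2.56 to 3.27). *Fhl3* was at 226 against 23.1 CPM in YFP+, a log2 ratio of 3.24 (2.75 to 3.75). In YFP- *Fhl3* had 1 UMI in Actb-high cells, under the floor of 3 UMIs (81.0 CPM), against 13 UMIs (28.9 CPM) in Actb-low cells. The log2 ratio there was -0.09 (-4.25 to 2.58). The level of *Fhl3*, a label gene, could not be read in the 29 YFP- members beyond its interval of 0.68 to 150 CPM. The free RNA of YFP+ held *Notch2* at 237, *Slc39a1* at 107 and *Fhl3* at 71.5 CPM, in each case below the Actb-high and above the Actb-low cells. That of YFP- held them at 89.4, 45.3 and 29.8 CPM, below Actb-low cells for *Notch2* and near them for the others.

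The promoters of the 3 genes are shown because they are the label genes of these cells. In YFP+ all 3 were higher in Actb-high than in Actb-low cells, and in YFP- *Notch2* and *Slc39a1* were. Each runs from 250 bases before to 30 bases after the start site (RefSeq, GRCm38.p6, strand +, 5′ to 3′), with capitals on matches to the NF-kB site. *Notch2* lies at chr3:98013288-98013567, *Slc39a1* at chr3:90247942-90248221 and *Fhl3* at chr4:124700449-124700728. *Actb* had no entry.
Notch2: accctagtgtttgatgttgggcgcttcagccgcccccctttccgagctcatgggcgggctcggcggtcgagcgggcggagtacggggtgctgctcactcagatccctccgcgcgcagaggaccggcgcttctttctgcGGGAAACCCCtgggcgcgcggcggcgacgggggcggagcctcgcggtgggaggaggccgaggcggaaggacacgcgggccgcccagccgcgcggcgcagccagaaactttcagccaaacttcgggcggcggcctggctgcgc
Slc39a1: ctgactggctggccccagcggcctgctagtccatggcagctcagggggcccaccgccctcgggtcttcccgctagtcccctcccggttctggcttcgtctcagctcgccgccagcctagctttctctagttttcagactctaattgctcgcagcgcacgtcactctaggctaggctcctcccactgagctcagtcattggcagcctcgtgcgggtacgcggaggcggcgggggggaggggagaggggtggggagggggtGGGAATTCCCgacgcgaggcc
Fhl3: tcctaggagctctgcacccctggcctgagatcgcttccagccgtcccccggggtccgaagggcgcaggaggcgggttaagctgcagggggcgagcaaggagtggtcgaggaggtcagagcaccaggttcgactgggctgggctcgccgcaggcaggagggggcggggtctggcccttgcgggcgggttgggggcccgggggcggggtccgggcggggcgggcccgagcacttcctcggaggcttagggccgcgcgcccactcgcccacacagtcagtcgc

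The match in *Notch2*, GGGAAACCCC, begins 112 bases before the start site, and that in *Slc39a1*, GGGAATTCCC, begins 9 bases after it. The *Fhl3* window had none, and none of the 3 held a CArG box, the element of serum response factor that controls many actin genes. Both motifs were searched on both strands and were picked after the sequences had been seen. An NF-kB match was in 7.94% of all 32851 promoters of this length, in 10.0% of those of the genes measured here and in 6 of 48 (12.5%) of those of the genes higher in both libraries described below, of which 37 of 48 genes had an entry. A CArG box was in 1.56% of all promoters and in 0 of those 48.

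The levels did not step up at 2%. In YFP+ *Notch2* was at 102 CPM in cells with under 0.5% *Actb*, 257 at 0.5 to 1%, 637 at 1 to 2%, 627 at 2 to 3%, 747 at 3 to 5% and 774 at 5% or more. It climbed below the limit and the classes from 1% upward had nearby levels. *Slc39a1* was at 34.0, 92.9, 236, 314, 445 and 468 CPM and *Fhl3* at 13.8, 51.3, 126, 178, 274.5 and 396 CPM over the same classes, each value above the last, although the intervals of the top classes overlapped. In YFP- *Notch2* was at 88.9, 221, 548, 524 and 714 CPM and *Slc39a1* at 33.4, 88.4, 293.5, 629 and 714 CPM, the last class being 8 cells, and no cell reached 5%. In YFP- *Fhl3* was at 16.7 CPM (6 UMIs) under 0.5% and 77.4 CPM (7 UMIs) at 0.5 to 1%. It had 1 UMI or none in each YFP- class from 1% upward, too few to read. Just below the limit, the 159 YFP+ cells with 1.75 to 2% held *Notch2* at 727 CPM, and just above it the 161 cells with 2 to 2.25% held 596 CPM. Around the 1% limit *Notch2* was at 342 CPM just below (142 cells) and 562 CPM just above (112 cells).

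**Figure D3:**
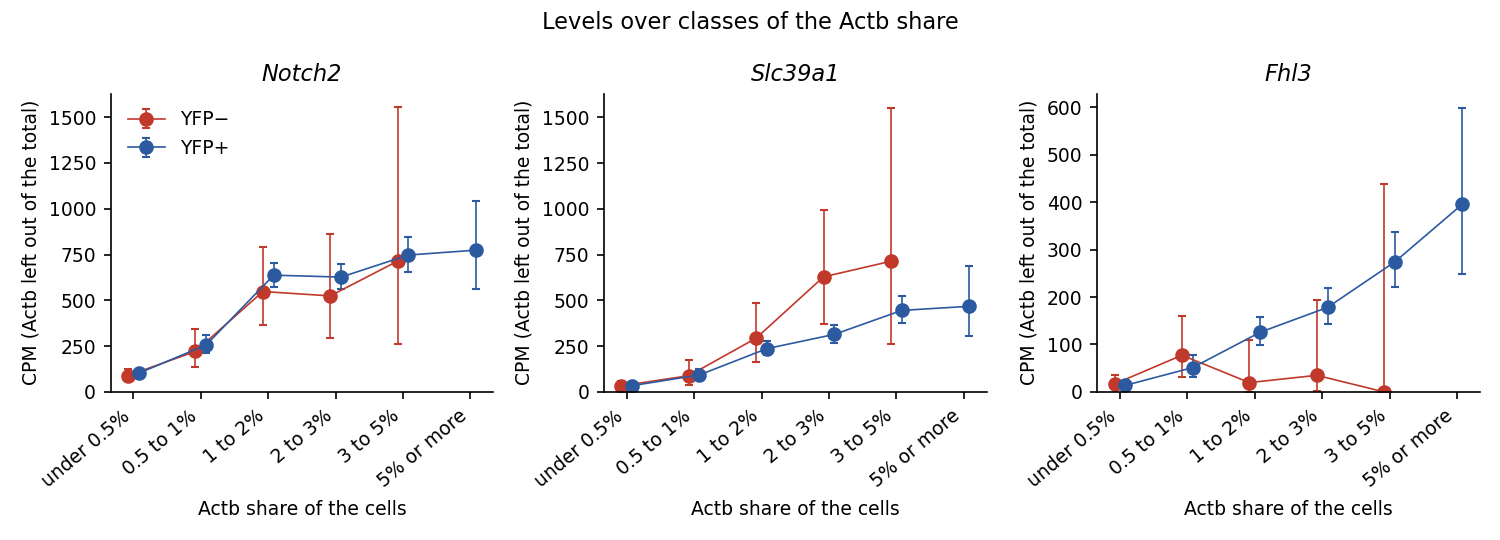
Level in CPM (y axis, with Actb left out of the total) of Notch2, Slc39a1 and Fhl3 in classes of cells by their Actb share (x axis), per library, with exact 95% Poisson intervals. Notch2 levels off from 1% upward in both libraries, Slc39a1 climbs in both, and Fhl3 climbs to 396 CPM in YFP+. In YFP- Fhl3 has at most 1 UMI per class from 1% upward and cannot be read there.

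Within single members these transcripts were sparse. In YFP+, 434 of 937 Actb-high cells had a *Notch2* UMI, 277 a *Slc39a1* UMI and 172 an *Fhl3* UMI, 41 had all 3 and 299 had none. In YFP-, 14, 17 and 1 of 29 had one. Pearson r between pairs of the 3 genes over the YFP+ members was 0.02 to 0.08, which in counts this sparse is no finding, and the genes were high in the same summed class but not shown to be high together in a cell. In these sparse counts a cell without a UMI is not shown to lack the gene.

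Beyond *Actb*, 5808 genes had a mean of at least 20 CPM over the 4 sums. A gene was counted as higher or lower where its ratio was at least 1.5-fold and its interval left out 0. In both libraries 48 genes (0.826% of those measured) were counted higher and 10 (0.172%) lower. In YFP+ alone, where the sums are deep, the counts were 289 (4.98%) and 173 (2.98%), and in YFP- alone 238 (4.10%) and 62 (1.07%), with a floor of 81.0 CPM in the 29 cells. Genes below 20 CPM in both Actb-low sums reached the minimum only through the Actb-high cells, and had to be higher there in at least 1 library. They were 312 of the 5808, 6 of the 48, 33 of the 289 and 51 of the 238. The shares of higher genes and the backgrounds taken from them are too high by such genes. None of the 312 could be counted lower in both libraries, so that share is too low. Their effect on the shares of lower genes in each library alone was not worked out. The median log2 ratio over all genes measured was 0.08 in YFP- and 0.03 in YFP+. Of the 48 genes, 43 were protein coding, 4 non-coding or not yet classified and 1, *Zfp862-ps*, a pseudogene.

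The leading genes with a mean of at least 50 CPM followed, not in rank order and with no functional group tested among them. All of them except *Notch2*, *Wtap* and *Clasp2* were under 50 CPM in both Actb-low sums. Those genes passed the 50 CPM minimum only through the Actb-high cells, so their place among the leading genes is a description. *Wtap*, a subunit of the complex that methylates adenosines in mRNA, was at 270 against 55.5 CPM in YFP- and 229 against 57.2 CPM in YFP+, log2 ratios of 2.26 (1.05 to 3.36) and 1.98 (1.63 to 2.34). *Rbm15*, another subunit of that complex, was at 162 against 19.99 CPM in YFP- and 83.96 against 24.3 CPM in YFP+ (2.96 and 1.746), and *Ythdf2*, which binds the methylated mRNA and speeds its decay, at 216 against 31.1 and 116 against 37.1 CPM (2.76 and 1.62). *Paip1*, which acts with the poly(A)-binding protein in translation, was at 108 (4 UMIs) against 6.66 and 95.01 against 25.5 CPM (3.83 and 1.85). Each had intervals off 0 in both libraries, but above 2000 UMIs in YFP- *Paip1* (-0.07) and *Ythdf2* (0.02) had ratios near 0. No list of mRNA methylation genes was scored, so how the other such genes lay was not counted.

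*Nfia*, a transcription factor, had ratios of 3.05 and 2.18, on 3 UMIs in the YFP- members. *Pim1*, a serine/threonine kinase induced by cytokines, was at 135 against 17.8 CPM and at 115 against 32.2 CPM (2.86 and 1.80). *Clasp2*, which binds growing microtubule ends, had ratios of 2.07 and 1.83, and *C5ar2*, the second receptor for complement C5a, of 2.57 and 1.24. The non-coding *A930001M01Rik* (2.54 and 1.80) is antisense to *Tbc1d22a*, and *Gm12940* (2.21 and 1.62) overlaps *Sfpq* on the same strand, so their reads may belong to those neighbours. *Notch2* itself overlaps the models *Gm42819* and *Gm42820*.

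**Figure D4:**
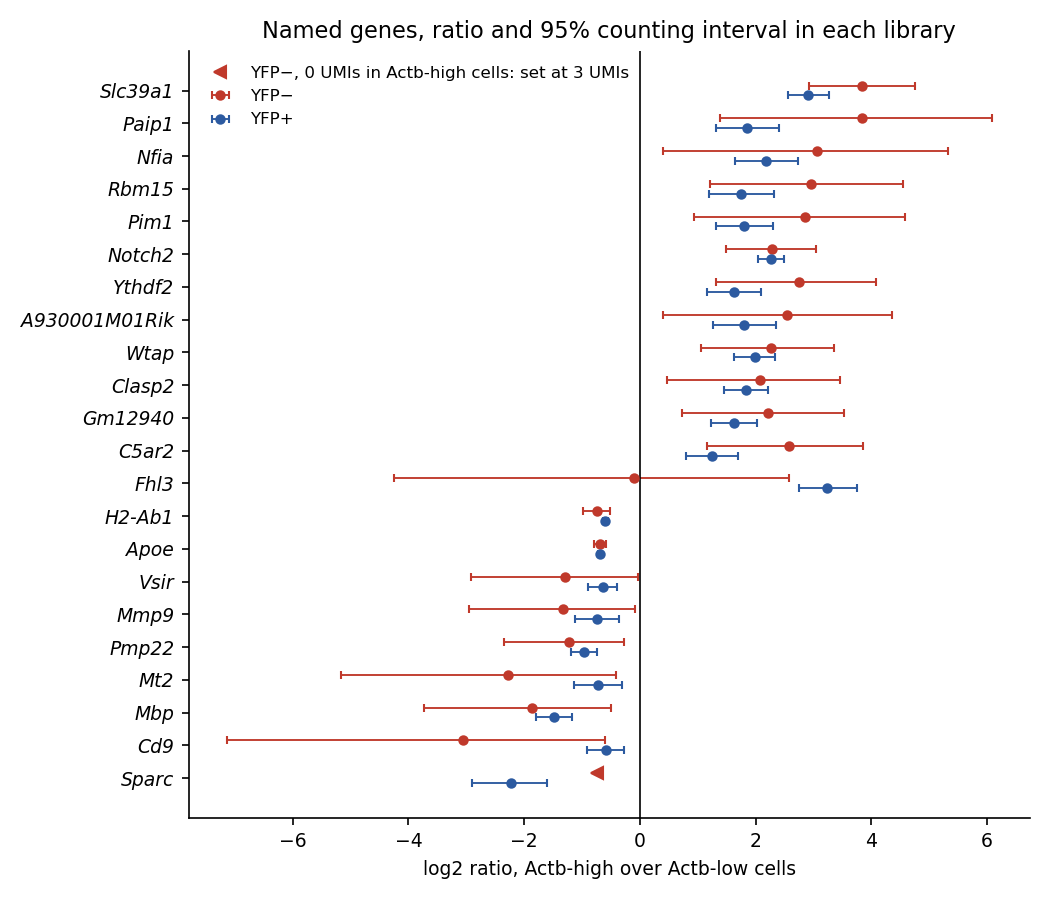
Log2 ratio of Actb-high over Actb-low cells (x axis) for the leading genes higher in both libraries, Fhl3 and genes lower in both (y axis), with 95% counting intervals, YFP- in red and YFP+ in blue. The triangle for Sparc in YFP-, at 0 UMIs, is set at the floor of 3 UMIs and is not a bound. The YFP- intervals are wide, Fhl3 spans 0 in YFP-, and Apoe and H2-Ab1 have narrow intervals below 0 in both libraries.

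Over the 11 class-and-library sums drawn in the plot of levels by *Actb* share, the genes whose log2 CPM followed that of *Notch2* most closely, *Actb* left out since it orders the sums, were *Slc39a1* (Pearson r = 0.95), *Cbx3* (0.94), *Nfia* (0.93), *Gm12940* (0.92) and *Ncoa3* (0.91). The sums share 2 libraries and the ordering by *Actb*, so r is a description. Over the 6 YFP+ sums alone r for these 5 was 0.99 (*Slc39a1*), 0.94 (*Cbx3*), 0.88 (*Nfia*), 0.99 (*Gm12940*) and 0.96 (*Ncoa3*), and other named genes, *Fhl3* (0.97) among them, lay above some of these. Over all 11 sums r for *Fhl3* was 0.27. *Cbx3*, a heterochromatin protein, was at 270 against 104 CPM in YFP- and 302 against 107 CPM in YFP+, and *Ncoa3*, a coactivator of nuclear receptors, at 378 against 129 and 430 against 145 CPM.

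Of 19 measured genes for receptors, ligands and their processing, 2 were counted higher in both libraries, *Notch2* the label gene, and the ligand gene *Jag1*, and none lower, against 0.826% and 0.172% of all genes. *Jag1* is among the genes that reached the minimum only through the Actb-high cells. It was at 81.0 CPM (3 UMIs) against 11.1 in YFP- and 37.6 against 16.4 in YFP+, log2 ratios of 2.76 (0.17 to 4.94) and 1.15 (0.41 to 1.89). In YFP- alone 3 of the 19 were counted higher (background 4.10%) and none lower. In YFP+ *Ncstn*, a subunit of the gamma-secretase that releases the inner part of the receptor, was counted lower (background 2.98%). It was at 40.9 against 63.9 CPM (-0.63, -1.20 to -0.09). The list's median log2 ratio was 0.51 in YFP- and -0.23 in YFP+, on opposite sides of 0. *Notch1* was at 29.8 and 34.1 CPM in YFP+, and *Notch3*, *Notch4*, *Dll1*, *Dll3*, *Dll4* and *Jag2* were below the minimum level.

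Among nuclear partners and targets of Notch, 10 of 24 were measured and none was counted in both libraries. In YFP+ (background 4.98% higher and 2.98% lower) the coactivator genes *Maml2* (96.1 against 41.4 CPM, log2 ratio 1.20) and *Maml3* (28.7 against 15.2 CPM, 0.88) were counted higher and *Dtx3* (27.6 against 48.7 CPM, -0.80) lower. *Rbpj*, the DNA-binding partner of the cut receptor, was at 198 CPM in both classes of YFP+. The direct targets *Hes1*, *Hey1* and *Nrarp* were below the minimum level.

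Of 11 measured genes for FHL and other LIM domain proteins, *Fhl3* alone was counted higher and *Pxn*, for the adhesion protein paxillin, lower (34.2 against 56.6 CPM), both in YFP+ (background 4.98% higher and 2.98% lower). *Crip1*, the most abundant of them, was at 2429 against 1953 CPM (0.31, 0.24 to 0.39). Of 7 measured genes for zinc transporters and metallothioneins, *Slc39a1* was counted higher and *Mt2* lower in both libraries (background 0.826% and 0.172%). *Mt2*, a metal-binding metallothionein, was at 54.0 CPM (2 UMIs) against 267 in YFP- and 70.7 against 117 CPM in YFP+, log2 ratios of -2.28 (-5.17 to -0.42) and -0.72 (-1.14 to -0.31). *Mt1*, the neighbouring metallothionein, was at 1972 against 1348 CPM in YFP- (0.55, 0.18 to 0.90) and 1090 against 1139 CPM in YFP+. The zinc list's median was 0.78 in YFP-, with 5 of 7 above 0, and 0.12 in YFP+, and the FHL and LIM list's was -0.29 and -0.07.

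Of 13 measured genes for actin monomers and their binders, *Cap1*, which recycles actin monomers, was counted higher in both libraries (background 0.826%). It was at 135 against 24.4 CPM in YFP- and 57.5 against 35.3 CPM in YFP+. In YFP- 4 were counted higher (background 4.10%), *Cap1*, *Capg*, *Pfn1* and *Tmsb4x*, and in YFP+ *Cap1* alone (background 4.98%). The list summed to 25847 CPM in Actb-high and 17272 CPM in Actb-low cells of YFP-, and to 23104 and 19554 CPM in YFP+, with medians of 0.61 and 0.32. *Tmsb4x*, which holds monomers in reserve and led the list, was at 20905 against 13663 CPM in YFP- (0.61, 0.50 to 0.72) and 18019 against 15400 CPM in YFP+ (0.23, 0.20 to 0.25). *Pfn1*, for profilin, was at 1945 against 1239 CPM in YFP- and 1673 against 1343 CPM in YFP+ (0.65 and 0.32), and *Cfl1*, for the filament-severing cofilin, at 1080 against 862 and 1270 against 972 CPM (0.33 and 0.39). *Capg*, which caps filament ends, was at 189 against 64.4 CPM in YFP- (1.54) and 93.9 against 88.8 CPM in YFP+. *Actg1*, the gamma-actin gene, was at 940 against 702 CPM in YFP+ (0.42) and 729 against 577 CPM in YFP- (0.34, -0.29 to 0.91). *Actg1* and *Actb* are close copies and their reads may be divided unevenly. *Gsn*, for the filament-severing gelsolin, was counted lower in YFP+ (background 2.98%) at 46.4 against 112 CPM.

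Of 27 measured genes for filament binding and myosin, *Myh9* alone was counted higher in both libraries (background 0.826%). In YFP- *Flna*, *Tln1* and *Myl12b* were also higher (background 4.10%) and *Coro1c* lower (background 1.07%). *Myh9*, the heavy chain of non-muscle myosin IIA, was at 351 against 99.9 CPM in YFP- and 312 against 80.3 CPM in YFP+, log2 ratios of 1.80 (0.79 to 2.71) and 1.94 (1.64 to 2.25). Its partners among the light chains, *Myl6* and *Myl12a*, had YFP+ ratios of 0.33 and 0.24. Of 21 measured genes for nucleation and branching, 1 was counted higher in YFP+ (background 4.98%), *Actr2* of the Arp2/3 complex, and none in both libraries. Of 18 measured targets of SRF and MRTF, the factors that read the actin monomer pool, *Myh9*, *Lima1* and *Cnn2* were counted higher in YFP+ (background 4.98%) and none lower, and in YFP- 2 were counted higher (*Myh9* and *Flna*, background 4.10%) and 2 lower (*Fos* and *Junb*, background 1.07%). The median of that list was 0.04 in YFP- and 0.28 in YFP+.

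All 26 macrophage identity genes were measured, and in Actb-high cells they summed to 88238 CPM in YFP- and 88780 CPM in YFP+, against 112458 and 115725 CPM in Actb-low cells. The free RNA held them at 114473 and 102804 CPM, above the members in both libraries, so their presence alone does not show that the members express them. The list's median log2 ratio was -0.20 in YFP- and -0.19 in YFP+. In YFP- 5 of 26 were counted lower (*Apoe*, *Fcgr1*, *Cd68*, *Mrc1* and *Ctsb*, background 1.07%) and 1 higher (background 4.10%), and in YFP+ *Apoe* lower (background 2.98%) and *Mertk* higher (background 4.98%). *C1qa*, a complement subunit gene of tissue macrophages, was at 6347 against 6840 CPM in YFP- and 5110 against 6912 CPM in YFP+. *Csf1r*, for the growth factor receptor that macrophages depend on, was at 1053 against 1410 and 792 against 1073 CPM. *Fcgr1*, which encodes the CD64 used in the sort, had 0 UMIs in the 29 YFP- members, with an exact upper limit of 99.6 CPM, against 127 CPM in Actb-low cells, and was at 107 against 110 CPM in YFP+. *Apoe*, the lipid-carrying apolipoprotein, was at 21067 against 34073 CPM in YFP- and 16437 against 26526 CPM in YFP+, and *Cd74*, the invariant chain of MHC class II, at 18555 against 23362 and 22880 against 33049 CPM. The *Apoe* log2 ratio was -0.69 in each (-0.80 to -0.59 and -0.72 to -0.66). *Mertk*, a receptor for the uptake of dying cells, was at 95.01 against 62.7 CPM in YFP+.

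Of 7 measured MHC class II genes, which present antigen to T cells, *H2-Ab1* was counted lower in both libraries (background 0.172%) and no other was counted in either. It was at 4456 against 7440 CPM in YFP- and 6349 against 9628 CPM in YFP+, log2 ratios of -0.74 (-0.97 to -0.51) and -0.60 (-0.64 to -0.56). *Cd74*, *H2-Aa* and *H2-Eb1* had YFP+ ratios of -0.53, -0.36 and -0.47, with 0 of the 7 above 0 there and 1 above 0 in YFP-, and the list's median was -0.33 in YFP- and -0.44 in YFP+. *Vsir*, for the checkpoint protein VISTA, was at 135 against 331 and 201 against 314 CPM.

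Of 12 measured chemokine and cytokine genes, 1 was counted higher in both libraries (background 0.826%), 4 in YFP- (*Cxcl2*, *Ccl24*, *Ccl9* and *Cxcl16*, background 4.10%) and 3 in YFP+ (background 4.98%). *Cxcl2*, which draws neutrophils, was at 270 against 84.4 and 253 against 159 CPM. *Ccl2* and *Ccl7*, which draw monocytes, were higher in YFP+ (251 against 82.1 and 134 against 50.5 CPM, ratios of 1.60 and 1.39). In YFP- they were at 108 against 129 and 81.0 against 75.5 CPM, on 4 and 3 UMIs in the members, too few to set beside YFP+. *Ccl24*, which draws eosinophils, was higher in YFP- at 918 against 275 CPM (1.73, 1.14 to 2.29), with 178 against 229 CPM in YFP+. No difference between the libraries was tested. *Ccl4* was counted lower in YFP+ (126 against 198 CPM, background 2.98%), and the median over the 12 measured was -0.01 there. Of 21 measured immediate-early genes, *Klf4* was counted higher in YFP+ (background 4.98%) and 5, *Fos*, *Jun*, *Junb*, *Dusp1* and *Zfp36*, lower in YFP- (background 1.07%), the medians being 0.14 and -0.70. In YFP+, where the backgrounds were 4.98% higher and 2.98% lower, 1 of 12 heat shock genes was higher (*Dnaja1*), of 20 phagocytosis and Fc receptor genes *Mertk* was higher and *Fcgr4* lower, and of 11 monocyte genes *Plbd1* was lower. In YFP-, with 4.10% and 1.07%, *Hsp90ab1*, *Msr1* and *Cd52* were higher in these lists and *Fcgr1*, *Gas6* and *Mrc1* lower. Of 15 housekeeping genes *Tubb5*, for a tubulin, was higher in both libraries (background 0.826%).

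Of the 10 genes lower in both libraries, several are markers of other nerve cells. *Mbp*, a myelin gene, was at 108 CPM (4 UMIs) against 398 in YFP- and 117 against 328 CPM in YFP+, log2 ratios of -1.87 (-3.73 to -0.50) and -1.48 (-1.79 to -1.18), and *Pmp22* at 243 against 566 and 220 against 429 CPM (-1.22 and -0.96). *Sparc*, a matrix protein gene, had 0 UMIs in YFP- members against 135 CPM, and was at 24.3 against 117 CPM in YFP+. *Cd9*, a tetraspanin gene, was at 27.0 CPM (1 UMI) against 233 and 119 against 180 CPM, and *Mmp9*, a gelatinase gene, at 135 against 342 and 87.3 against 146 CPM.

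The 13 Schwann cell markers summed to 378 against 1735 CPM in YFP- and 431 against 1153 CPM in YFP+, with *Pmp22* the most abundant. In the free RNA they summed to 3431 and 5512 CPM. Of them 5 were measured, 3 were counted lower in both libraries (background 0.172%) and *S100b* in YFP+ as well (background 2.98%). *Sox10* and *Mal* were at 0 in the Actb-high cells of both libraries. Fibroblast markers summed to 81.0 against 173 CPM in YFP- and 80.6 against 424 CPM in YFP+, with *Gsn* leading and *Pdgfra* at 0 in the members of both libraries. Endothelial markers summed to 81.0 against 184 and 61.9 against 108 CPM, with *Egfl7* leading and *Cdh5* at 0, B cell markers to 216 against 384 and 362 against 398 CPM, with *Ighm* leading and *Cd79a* at 0, and neutrophil markers to 135 against 369 and 109 against 157 CPM, led by *Mmp9* with *S100a8* at 0. Mural cell markers, none of which reached the minimum level, went the other way in YFP+ at 80.6 against 40.1 CPM. *Acta2*, the smooth muscle actin gene, led them in YFP+. In YFP- mural cell markers summed to 54.0 CPM (2 UMIs) against 46.6 CPM. The free RNA held them at 66.2 CPM (YFP-) and 363 CPM (YFP+), above the members in both libraries. T and NK, mast, platelet and erythroid markers had at most 10 UMIs per library in Actb-high cells. The part of this RNA of other cells in the results was not tested. Without cells that held 2 or more UMIs on other cell types' markers, 42 genes were higher, 36 of the same, and 6 lower, 3 of the same.

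The members of the 2 libraries were also set against each other, where the depth of 29 cells was the limit. YFP+ was counted higher for 44 of 5744 genes (0.766%) and lower for 318 (5.54%). Of the label genes, *Fhl3* was counted higher in YFP+ (log2 ratio 3.02, 0.57 to 7.08), on 1 UMI in YFP-. *Slc39a1* was counted lower (-0.80, -1.40 to -0.14), and *Notch2* neither way (0.26, -0.36 to 0.96). The leading higher genes, *Vapa*, *Chmp4b*, *Gm17066*, *9930111J21Rik2* and *Necap2*, all had 0 UMIs in YFP- members. The exact counting intervals of their log2 ratios, YFP+ over YFP-, began at 0.74 for *Vapa*, 0.46 for *Chmp4b*, 0.42 for *Gm17066*, 0.36 for *9930111J21Rik2* and 0.30 for *Necap2*. The leading lower genes, *Ermard*, *Ccl8*, *Ets1*, *Zfp866* and *Rhno1*, had 4 to 6 UMIs in YFP-. A gene with so few UMIs in YFP- passed the minimum level because it was high there, and the excess of lower genes was not read further.

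Cells above 2000 UMIs were not used by the rule, and the same 2% and 1% limits on *Actb* were put on them. *Notch2* was at 557 against 64.3 CPM in YFP- and 559 against 78.3 CPM in YFP+, log2 ratios of 3.09 (2.61 to 3.57) and 2.82 (2.53 to 3.11). *Slc39a1* was at 491 against 17.9 and 323 against 40.1 CPM (4.70 and 2.98). *Fhl3* was at 47.2 against 9.89 CPM in YFP- and 68.1 against 11.8 CPM in YFP+, log2 ratios of 2.15 (0.42 to 3.59) and 2.43 (1.63 to 3.20). Here *Fhl3* was higher in both libraries, and the 3 label genes were high in Actb-high cells beyond the shallow range.

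Of the 48 genes higher in the range, 42 had a ratio above 0 in the deeper YFP+ cells and 31 were counted higher, where 4.05% of all genes were. In YFP- 41 were above 0 and 24 were counted, where 3.37% of all genes were. The 43 protein-coding genes among the 48 had a median level of 153 CPM and the 10 lower genes 227 CPM. All measured protein-coding genes had a median of 49.3 CPM. Genes with more UMIs have narrower intervals and are counted more easily, so the shares of all genes are not a matched background here. The median deeper ratio of the 48 was 0.99 in YFP-. *Paip1* was at 47.4 against 40.1 CPM in deeper YFP+ cells (0.24, -0.60 to 0.98), the weakest of the leading genes there. Of the 10 lower genes 9 kept their sign in each library, but 4 were counted lower in YFP+, where 1.98% of all genes were, and 2 in YFP-, where 1.53% were, and *Apoe* was at 17697 against 21271 CPM in YFP+ (-0.27, -0.30 to -0.23) and 25491 against 26427 CPM in YFP-.

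**Figure D5:**
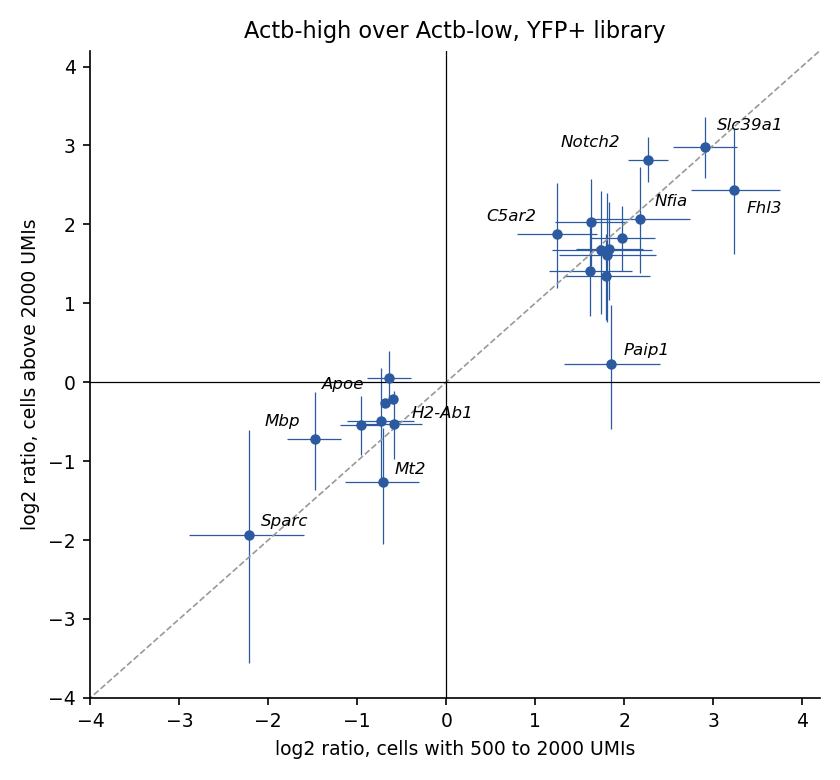
Log2 ratio of Actb-high over Actb-low cells in YFP+ for the named genes, in cells with 500 to 2000 UMIs (x axis) and in cells above 2000 UMIs (y axis), with 95% counting intervals and the line of equal values dashed. The leading higher genes other than Paip1 lie between 1.35 and 2.98 in the deeper cells, and most lower genes lie nearer to 0 there. The pseudogene Zfp862-ps, higher in both libraries but not a leading gene, has a ratio of 0.95 (0.14 to 1.69) in the deeper cells.

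The protein-coding genes higher in both libraries had longer transcripts in the median than all measured genes, of which they are part. The median length of the longest annotated transcript was 3983 bases for 43 genes, against 2967 bases for 5411 measured genes and 1912 bases for the 10 lower genes. For the YFP+ counts the medians were 3786 bases for higher and 2815.5 bases for lower genes. The median level was 153 CPM for genes higher in both and 227 CPM for genes lower in both, against 49.3 CPM for all. For the YFP+ counts it was 48.8 CPM for higher and 39.2 CPM for lower genes. The median GC content was 48.8% for genes higher in both, 49.2% for all and 54.4% for genes lower in both.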

How the data were processed

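Counts were deposited by the authors as raw 10x Chromium UMI matrices, 1 per library, of 54838 genes by barcode, mapped to GRCm38/mm10. The methods and the submitters' processing notes differ on the Cell Ranger version (the notes list 3.0.2, with Seurat 2.2.0). Barcodes with at least 500 UMIs and 200 genes were taken as cells. Doublets were not called, and no cell clusters were built. Counts were summed per library and class, without *Actb* in the total. Ratios used a pseudocount of 1 CPM and exact conditional binomial intervals (95%), levels Poisson and shares Clopper-Pearson intervals, all for counting error only. With 1 library per group, and classes cut on a measured gene, no p-value was computed. Genes needed a mean of 20 CPM, and leading genes 50 CPM in the mean, up to 12 in each direction by mean log2 ratio. A level is not shown to be absent below 3 UMIs. Of the gene identifiers 54809 were in GENCODE M21, which gave positions and transcript lengths. The members and the 31 gene lists were chosen with earlier results of these data known. The ratio calculation was checked on simulated data. The tools were Python 3.11.15 with pandas 2.3.3, scipy 1.17.1 and numpy 2.4.6. Some items are not reported here. Alternatives are given in the closing section.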

Additional observations from a re-analysis of the deposited data

Results flagged for a closer look

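*Chmp4b*, for a subunit of the ESCRT-III membrane-cutting complex, lay on opposite sides of 0 in the 2 libraries. It had 0 UMIs in the 29 Actb-high cells of YFP- against 63 UMIs in Actb-low cells, for which the log2 ratio is -0.79 with the level set at 3 UMIs. This is not a bound, since the exact counting interval reaches -0.44. In YFP+ it was at 139 against 100.96 CPM, a log2 ratio of 0.46 (0.12 to 0.80). The difference between the libraries was not tested, since each is 1 library.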

How the results depend on the processing

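The log2 ratios of *Notch2* and *Slc39a1*, as means over the libraries, moved by more than their intervals under 1 alternative, all other cells as the comparison, to 1.57 and 2.55. In YFP+ alone, which holds 937 of 966 members, they fell at 500 to 1000 UMIs from 2.27 to 1.64 (1.25 to 2.05) and from 2.91 to 2.23 (1.60 to 2.92), which the 9 YFP- members there offset in the mean. Against all other cells they fell further in YFP+ alone, to 1.31 (1.15 to 1.48) and 1.90 (1.65 to 2.15). *Fhl3* (mean 1.57) was reversed to -0.65 with an *Actb* limit of 3%, -0.32 at 500 to 1000 UMIs, -1.04 with classes chosen on one part of the UMIs and measured in the other, -0.43 after thinning to 500 UMIs and -0.093 in YFP- alone, and was 3.24 in YFP+ alone. The YFP- members give it 1 UMI or none in each of these. The share of Actb-high cells was 1.83% and 15.1% at the 3% limit, and in YFP+ 46.1% at 500 to 1000 and 24.9% at 1000 to 2000 UMIs. The count of 48 higher genes became 18 at the 3% limit (12 of them among the 48) and 31 against all other cells (30). It was 18 after thinning (13 among the 48), 31 at 2-fold, all among the 48, and 238 in YFP- and 289 in YFP+ alone. The count of 10 lower genes became 6 at the 3% limit (3 of them among the 10) and 19 at 500 to 1000 UMIs (5). It was 2 at 1000 to 2000 UMIs and 4 with the split UMIs, all among the 10. Alone, YFP- gave 62 and YFP+ 173. There were 6 without cells that held other cell types' UMIs (3 among the 10) and 3 at 2-fold, all among the 10. At 500 to 1000 UMIs 38 genes were higher and only 7 of them were among the 48. With Actb-low cells weighted to the UMI totals of Actb-high cells, an alternative chosen after seeing the data, 48 genes were higher (38 shared) and 15 lower (9 shared). In YFP+ alone that weighting gave log2 ratios of 1.95 (1.74 to 2.18) for *Notch2*, 2.60 (2.25 to 2.96) for *Slc39a1* and 2.91 (2.42 to 3.42) for *Fhl3*. Depth limits YFP- to genes above 81.0 CPM. No paired analysis was possible because each group is 1 library.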

Other observations

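In YFP+ alone, some genes high in the members were too sparse in YFP- to be read there and were chosen after their values were seen. *Kdm6b*, which removes a repressive histone mark, was at 103 against 20.1 CPM (log2 ratio 2.30), *Alkbh5*, which removes methyl groups from adenosines in mRNA, at 114 against 30.4 CPM (1.87), and *Abhd2* at 97.2 against 11.6 CPM (2.97). Above 2000 UMIs their YFP+ ratios were 1.72, 1.58 and 3.72. Each had 1 or 2 UMIs in the YFP- members.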
